A study of Mus musculus with 4 samples.

Results

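Nestin, desmin, vimentin, synemin, syncoilin, plectin, nesprin-1, nesprin-2, lamin A/C and lamin B1 form or anchor the filaments that run from the surface of a muscle fibre to its nuclei. Their transcripts were read from every probe set that the array's annotation assigns to Nes, Des, Vim, Synm, Sync, Plec, Syne1, Syne2, Lmna or Lmnb1 alone, which gave 30 of the 45101 probe sets for the 10 genes. A further probe set is annotated to Plec together with another gene and was left out. The RNA was total RNA of the mouse left hemi-diaphragm, taken from the synaptic region, which holds the nerve contacts, or from the non-synaptic region, with 2 arrays each. The labels give no strain, age, sex, genotype or treatment. They do not say whether a region's arrays are from different animals, so the errors given here rest on differences between arrays and may be technical in origin. The arrays of a region are called replicate 1 and replicate 2 after the last digit of their titles, and the titles do not explain that digit.

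Intermediate filaments are rope-like polymers of coiled-coil proteins. In muscle fibres desmin links the Z-discs of neighbouring myofibrils to each other, to the membrane and to nuclei, while vimentin is the filament protein of connective tissue, vessel and immune cells, and nestin is known from dividing progenitors, Schwann cells, vessels, and the neuromuscular and myotendinous junctions of muscle. The nuclei beneath the synapse are gathered in a cluster and held there, and nesprins, which span the outer nuclear membrane, are known from mice to be needed for that anchoring, with SUN proteins and lamins as their partners on the inner side.

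Promoter sequences are shown for Nes, the member with the largest difference between the regions, and for Des and Vim, filament genes of the same family whose regions overlapped. Each runs 5′ to 3′ from 250 bases before to 50 bases after the start of the gene in RefSeq (GRCm38.p6), on the plus strand. Capitals mark GGAA on either strand, the core bound by ETS transcription factors, a family known to act on synaptic genes of muscle.
Nes, chr3:87970843-87971142: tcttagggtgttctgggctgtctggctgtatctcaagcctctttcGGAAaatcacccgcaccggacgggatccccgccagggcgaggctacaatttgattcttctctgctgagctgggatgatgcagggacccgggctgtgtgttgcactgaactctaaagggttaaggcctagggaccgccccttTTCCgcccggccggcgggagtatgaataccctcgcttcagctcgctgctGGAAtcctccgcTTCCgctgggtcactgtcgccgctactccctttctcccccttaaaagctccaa
Des, chr1:75360042-75360341: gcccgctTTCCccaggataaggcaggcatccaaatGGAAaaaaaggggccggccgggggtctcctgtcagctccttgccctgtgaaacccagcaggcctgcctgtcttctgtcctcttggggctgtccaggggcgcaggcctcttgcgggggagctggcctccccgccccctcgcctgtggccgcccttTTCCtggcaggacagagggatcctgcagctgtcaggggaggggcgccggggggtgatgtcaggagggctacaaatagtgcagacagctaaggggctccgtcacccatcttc
Vim, chr2:13574061-13574360: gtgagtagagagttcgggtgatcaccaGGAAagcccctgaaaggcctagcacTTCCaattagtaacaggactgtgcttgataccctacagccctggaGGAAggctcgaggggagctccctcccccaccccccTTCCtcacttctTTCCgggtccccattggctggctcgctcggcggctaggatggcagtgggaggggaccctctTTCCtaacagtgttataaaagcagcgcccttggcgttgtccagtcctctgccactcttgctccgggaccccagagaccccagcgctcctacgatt
The window of Nes held 4 such cores, that of Des 3 and that of Vim 6, and at least 1 was present in 96.0% of 32851 mouse promoters of the same length. The N-box CCGGAA, which contains the ETS core and is known from acetylcholine receptor genes, was searched on both strands and was present in 14.9% of promoters. Vim had 1 match, and Nes and Des had 0. The E-box CANNTG, the motif bound by myogenic factors, was present in 72.3% of promoters, with 2 matches in Des and 0 in Nes and Vim. Over all 11 promoters listed for 8 of the 10 genes, 2 held an N-box and 7 an E-box. Such matches describe letters in these windows and do not show binding.

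Signal was deposited as linear intensities in arbitrary units, 1 per probe set and array. Values below a floor of 158.9 were raised to it before log2 was taken, and probe sets with a mean log2 value under 8.87 were not tested. The median intensity per array ran from 658 to 769, and the floor held 18.7% to 21.3% of each array's probe sets. Of the 30 member probe sets 24 passed this filter, with at least 1 for each gene. The regions were compared with limma, a linear model with moderated variances, over 26477 probe sets. Each SE is from this fit, which draws a probe set's variance towards that of probe sets of similar intensity. The muscle fibre markers Acta1, Ckm, Mb, Tnnt3, Ttn and Myh1 were all measured, with a median log2 difference of 0.01. Of 5 genes of synaptic nuclei, 4 had both synaptic arrays above both non-synaptic arrays, among them Ache at 2.58 ± 0.23 (SE, n = 2 arrays per region). The share over all tested genes, each read from its brightest probe set, was 10.6%. In whole muscle pieces, fewer cells of a type and less RNA per cell cannot be told apart.

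Of the 24 tested probe sets, 23 had a 95% interval of the difference that included 0, and the remaining 1 belonged to nestin. No member probe set passed an adjusted p of 0.05 (limma without a term for the replicate number, Benjamini-Hochberg over all probe sets tested). Of all probe sets, 0.00378% were called higher and 0.00755% lower. At an unadjusted p under 0.05 the count was 1 higher and 0 lower, against 0.653% higher and 0.332% lower of all probe sets, and the 1 was a probe set of Nes. Of the 24 tested, 10 had a positive and 14 a negative difference, with a median of -0.10, beside -0.01 for everything tested. The median absolute log2 difference was 0.18 for the members and 0.14 for everything tested. The arrays of the regions did not overlap for 7 of the 24, with the synaptic ones above for 4 and below for 3, beside 9.89% and 9.98% of all probe sets. With each array centred on its median in place of the deposited scaling, the count above was 2, and those were both probe sets of Nes.

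**Figure D1:**
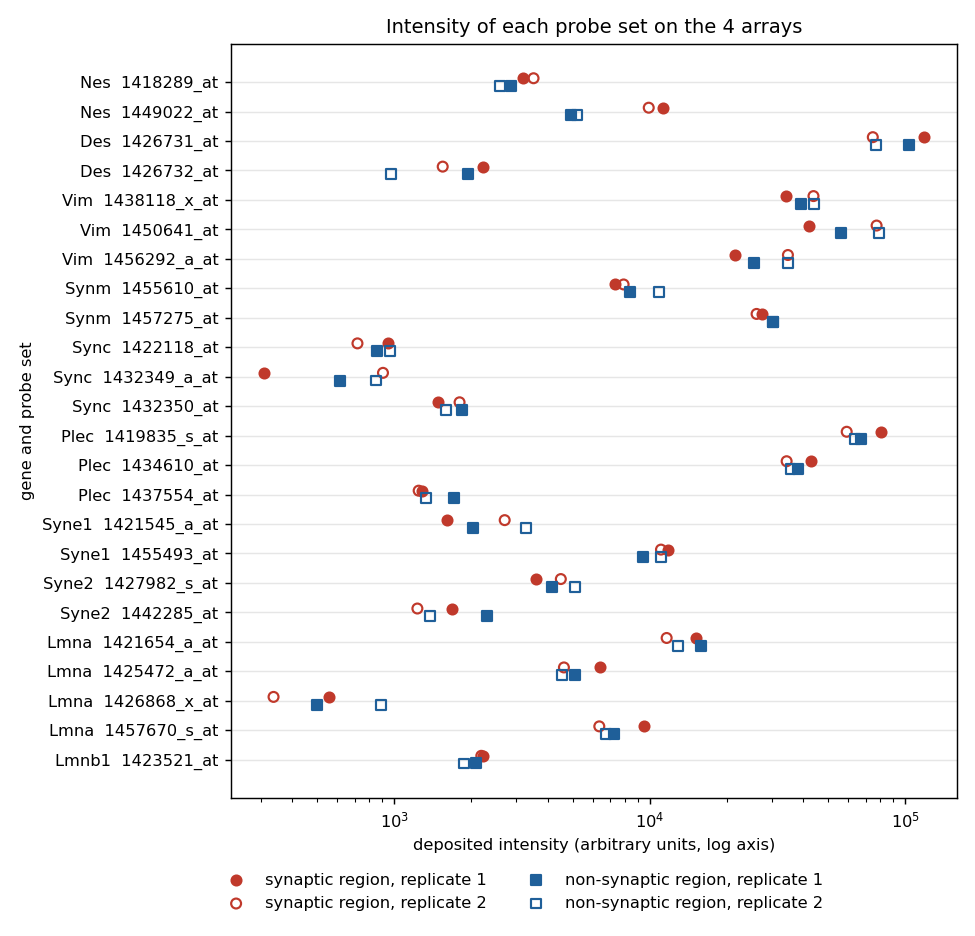
Deposited intensity (arbitrary units, log axis) of the 24 member probe sets that passed the filter, with red circles for the synaptic and blue squares for the non-synaptic arrays, filled for replicate 1 and open for replicate 2. The regions are clearly apart for Nes 1449022_at, while for the 3 probe sets of Vim and for Des 1426731_at the open symbols of both regions lie together, away from the filled ones.

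Nestin was the member that differed most. Its probe set 1449022_at had intensities of 11239 and 9918 on the synaptic arrays and of 4915 and 5188 on the non-synaptic arrays, so the regions did not overlap. The means were 10579 ± 934 and 5052 ± 193 (SD, n = 2), a log2 difference of 1.06 ± 0.18 (SE), or 2.09-fold, with a 95% interval from 1.51-fold to 2.89-fold. The unadjusted limma p was 0.00195, the 47th smallest of the 26477, and the adjusted p was 0.9999. The adjusted result changed when the replicate number was added to the fit as a block, as given in the last section. Synaptic replicate 1 exceeded non-synaptic replicate 1 by 1.19 on the log2 scale, and the same difference between the arrays of replicate 2 was 0.93. The difference was therefore present within each replicate number. It ran from 0.97 to 1.15 when each array was left out in turn, a range already fixed by the intensities above.

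The other probe sets of Nes gave smaller differences. Intensities of 1418289_at were 3189 and 3512 in the synaptic region and 2867 and 2592 in the non-synaptic region, again without overlap, with a log2 difference of 0.30 ± 0.21 (SE, n = 2 arrays per region). The 95% interval, from -0.23 to 0.82, lies partly within that of 1449022_at, from 0.60 to 1.53, and the difference between the 2 probe sets was not tested. The third, 1453997_a_at, did not pass the filter: it read 39.6 and 491 on the synaptic arrays and 60.1 and 360 on the non-synaptic ones, with replicate 1 of both regions at the floor. Which part of the transcript each probe set reads was not analysed here.

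Markers of other cells known to express nestin were set beside it. Of 13 Schwann cell markers 10 were on the array under a single gene, 9 passed the filter, and all 9 had both synaptic arrays above both others, with a median log2 difference of 1.16. Across genes read from 1 probe set, 10.6% were higher in this way. The summed intensity of the 10 markers was 108029 and 117378 on the synaptic arrays and 32329 and 34090.5 on the non-synaptic arrays, and none of the 10 was at the floor on any array. The 5 satellite cell markers had a median of -0.11, with 1 set apart as higher and summed intensities from 7808 to 8262 in the synaptic and from 7913 to 8455 in the non-synaptic region. The 10 endothelial markers had a median of -0.18, with summed intensities from 80306 to 88137 in the synaptic and from 85298 to 97507 in the non-synaptic region. None of the satellite and endothelial markers was at the floor. Of 8 smooth muscle and pericyte markers 7 were tested, with a median of -0.12. Of these, 3 were set apart as lower and 0 as higher, where 9.85% of all genes were lower in this way. Their sums were 147899 and 149930 in the synaptic and 147619 and 168006 in the non-synaptic region. Summed intensities of the 5 genes of synaptic nuclei were 31074 and 28099 in the synaptic region and 7403 and 6615 in the non-synaptic region. Schwann cell markers and genes of the synaptic nuclei were thus higher in the same region as Nes. In the synaptic region the Schwann cell sum was higher in replicate 2 and Nes 1449022_at in replicate 1. In the non-synaptic region both were higher in replicate 2. The sum of the genes of synaptic nuclei was higher in replicate 1 of both regions. Nes 1418289_at was higher in replicate 2 of the synaptic and in replicate 1 of the non-synaptic region. The part of these cells and nuclei in the nestin difference was not tested.

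**Figure D2:**
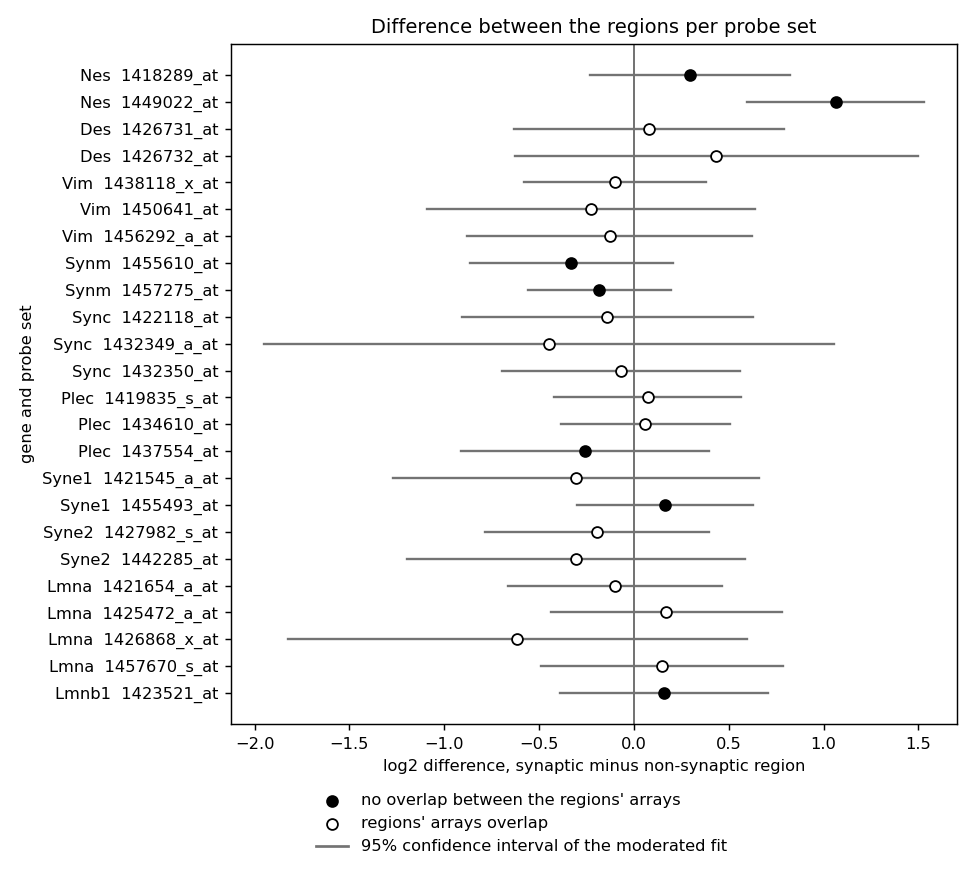
Log2 difference, synaptic minus non-synaptic region, of each tested member probe set with its 95% confidence interval from the moderated fit (n = 2 arrays per region). Filled points have no overlap between the regions' arrays, and the interval of Nes 1449022_at is the only one of the 24 that does not reach 0.

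Desmin, the main filament protein of the fibres, varied more between the arrays of a region than between the regions. Its probe set 1426731_at read 118979 and 74718 in the synaptic region and 103597 and 76815 in the non-synaptic region. Replicate 1 was the higher array in both regions, and the regions overlapped. The log2 difference was 0.08 ± 0.28 (SE, n = 2 arrays per region), with a 95% interval from -0.63 to 0.79. The dimmer probe set 1426732_at read 2235 and 1549 against 1945 and 973, also higher in replicate 1 of both regions, with a difference of 0.44 ± 0.42.

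Vimentin showed the opposite order of replicates. The probe set 1450641_at read 42058 and 77320 in the synaptic region and 56333 and 78946 in the non-synaptic region. Replicate 2 exceeded replicate 1 by 0.88 on the log2 scale in the synaptic and by 0.49 in the non-synaptic region, while the regions differed by -0.23 ± 0.34 (SE, n = 2 arrays per region). The probe sets 1456292_a_at and 1438118_x_at gave region differences of -0.13 ± 0.29 and -0.10 ± 0.19, and each was higher in replicate 2 of both regions. On all 3 probe sets of Vim the arrays of replicate 2 differed between the regions by no more than 0.03 in size, at -0.03, -0.006 and -0.01, and those of replicate 1 by -0.42, -0.25 and -0.19. Fibroblast, endothelial and macrophage markers, of cells known to be rich in vimentin, were also higher in replicate 2 of both regions in their summed intensities. The 8 fibroblast markers had sums of 413639 and 472378 in the synaptic region and 404507 and 491984 in the non-synaptic region, and a median region difference of -0.08. Summed intensities of the 7 macrophage markers were 29387 and 33287 against 31990 and 35033. These sums and those of the 10 endothelial markers, given above, were lower in the synaptic region within both replicate numbers, as Vim was. The fibroblast sum was not lower within replicate 1. Single markers varied, with a positive region difference for 3 of 10 endothelial, 3 of 7 macrophage and 1 of 8 fibroblast markers. The macrophage median was -0.06. None of these fibroblast, endothelial and macrophage markers was at the floor. Not all marker lists followed Vim. The sums of the 4 mesothelial markers were higher in replicate 1 of both regions, at 30058 and 28314 against 33280 and 27564. Schwann cell sums, given above, were higher in replicate 2 of both regions but, unlike Vim, far higher in the synaptic region. Fat cell markers, like Vim, had higher sums in replicate 2 of both regions and lower sums in the synaptic region within both replicate numbers. Their sums were 17326 and 23630 against 50908 and 66508. All 4 tested fat cell markers were set apart as lower, with a median of -2.03, beside 9.85% of all genes set apart as lower. At the floor were 2 and 1 of the 6 markers on the synaptic arrays and 1 and 0 on the non-synaptic arrays. The part of these cells in the values of Vim was not tested.

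Synemin, a large filament protein that joins desmin and vimentin filaments, was on the lower side in the synaptic region on both of its probe sets. Those arrays read 27415 and 26212 on 1457275_at, against 30412 and 30403 in the non-synaptic region. On 1455610_at they read 7309 and 7908, against 8363 and 10919. The regions did not overlap on either probe set, and the differences of -0.18 ± 0.15 and -0.33 ± 0.21 (SE, n = 2 arrays per region) did not pass the test, with unadjusted limma p-values of 0.273 and 0.176. With median centring the arrays of 1457275_at overlapped. Within replicate 1 the 2 probe sets differed between regions by -0.15 and -0.19, and within replicate 2 by -0.21 and -0.47, so the sign was the same in each.

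Syncoilin, which binds desmin and the dystrophin-associated complex, had overlapping regions on all 3 probe sets, with log2 differences of -0.07 ± 0.25 for 1432350_at, -0.14 ± 0.30 for 1422118_at and -0.45 ± 0.59 for 1432349_a_at (SE, n = 2 arrays per region). The last had the largest error of the 24, with 309 and 904 on its synaptic arrays against 612 and 849 on its non-synaptic arrays. None of the 3 kept its sign within both replicate numbers.

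Plectin, the cytolinker that ties filaments to Z-discs, membrane and nuclei, was measured with standard errors from 0.18 to 0.26. Its probe set 1434610_at read 42835 and 34366 in the synaptic region and 38010 and 35582 in the non-synaptic region, a difference of 0.06 ± 0.18 (SE, n = 2 arrays per region) with a 95% interval from -0.39 to 0.51. The probe set 1419835_s_at gave 0.07 ± 0.19, and by its name its probes may also match related transcripts. Intensities of the dim 1437554_at were 1280 and 1247 in the synaptic and 1712 and 1333 in the non-synaptic region, a difference of -0.26 ± 0.26. The regions overlapped on the first and second, while on 1437554_at they were apart with the synaptic arrays lower, and this separation was lost with quantile normalization and with median centring.

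Nesprin-1, encoded by Syne1, is the nuclear envelope protein best known from clusters of synaptic nuclei. Its brightest probe set, 1455493_at, read 11806 and 11075 in the synaptic region and 9422 and 11037 in the non-synaptic region. The synaptic arrays were above both others, but by a margin of 0.005 on the log2 scale within replicate 2, and the difference was 0.17 ± 0.18 (SE, n = 2 arrays per region), with a 95% interval from -0.30 to 0.63. For this probe set, a synaptic over non-synaptic ratio above 1.55 or below 0.81 thus lay outside the interval. The probe set 1421545_a_at went the other way, at -0.31 ± 0.38, reading 1610 and 2708 in the synaptic and 2028 and 3287 in the non-synaptic region, with overlap and with replicate 2 higher in both. The third, 1455225_at, was at the floor on all 4 arrays.

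Nesprin-2, encoded by Syne2, had 2 probe sets past the filter, and both had a negative difference with overlapping regions. The probe set 1427982_s_at read 3579 and 4491 in the synaptic and 4140 and 5083 in the non-synaptic region, a difference of -0.19 ± 0.23 (SE, n = 2 arrays per region). For 1442285_at the values were 1686 and 1233 against 2299 and 1379, a difference of -0.30 ± 0.35. On each of them the synaptic array lay below the non-synaptic array of the same replicate number. The other 2, 1438585_at and 1444074_at, did not pass the filter, with the first at the floor on all 4 arrays and the second on 1.

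Lamin A/C, the nuclear lamina protein of differentiated cells, was measured by 4 probe sets past the filter, with differences of both signs and overlapping regions on each. The brightest, 1421654_a_at, read 15245 and 11656 in the synaptic region and 15847 and 12871 in the non-synaptic region, a difference of -0.10 ± 0.22 (SE, n = 2 arrays per region). The differences were 0.17 ± 0.24 for 1425472_a_at, 0.15 ± 0.25 for 1457670_s_at and -0.61 ± 0.47 for 1426868_x_at. The last of these is a dim probe set, and its difference was 0.17 within replicate 1 and -1.39 within replicate 2. On the other 3, replicate 1 exceeded replicate 2 in both regions. The fifth, 1452212_at, did not pass the filter.

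Lamin B1 is the lamina protein of most cell types, including dividing ones. Its probe set 1423521_at read 2227 and 2193 in the synaptic region and 2085 and 1884 in the non-synaptic region. The regions did not overlap, though with quantile normalization and with median centring they did. The difference was 0.16 ± 0.22 (SE, n = 2 arrays per region). The other probe set, 1423520_at, did not pass the filter, and its values of 228 and 381 against 402 and 613 differed in the opposite direction, by -0.75.

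**Figure D3:**
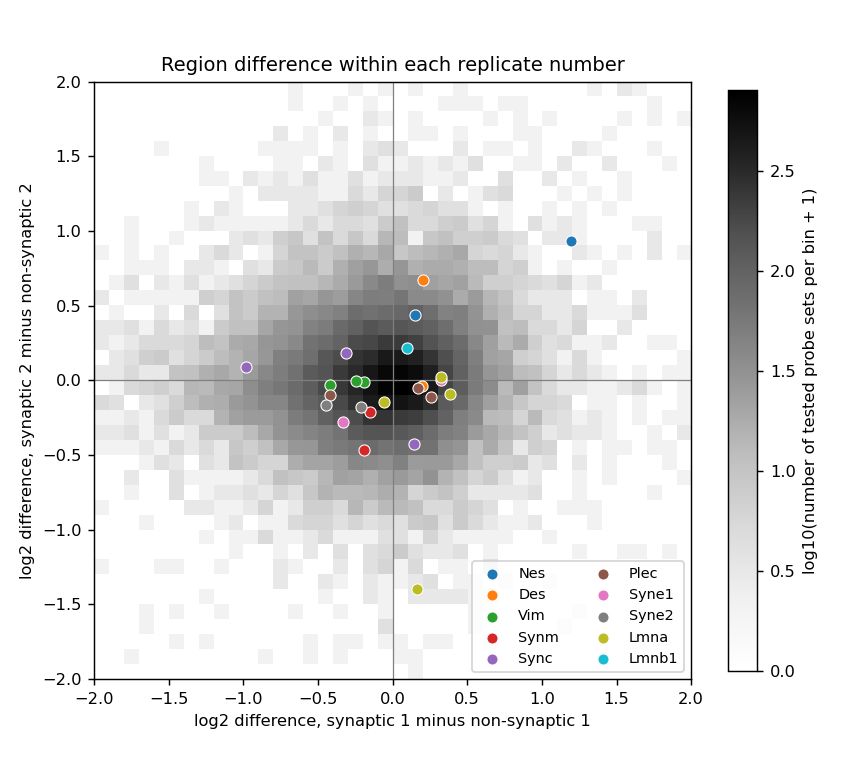
Log2 difference between the regions within replicate 1 (horizontal axis) and within replicate 2 (vertical axis) for the 24 tested member probe sets, coloured by gene, over the density of all 26477 tested probe sets (grey, log10 of the number per bin). Nes 1449022_at lies far along the diagonal at 1.19 and 0.93, while most members lie close to the origin.

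Within both replicate numbers, 6 of the 24 probe sets were higher and 10 lower in the synaptic region, beside 23.8% and 27.4% of all probe sets tested. The 10 lower held all 3 of Vim, both of Synm and both tested of Syne2. The 95% interval lay within 1 log2 unit of 0 for 17 of the 24. Except for Nes 1449022_at, differences ran from -0.61 to 0.44.

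The direction of the spread between the 2 arrays of a region was shared by the members about as often as by all probe sets. Replicate 2 exceeded replicate 1 in both regions for 7 of the 24 probe sets and lay below it in both for 11, beside 38.8% and 33.5% of all probe sets tested. The 7 included all 3 of Vim, and the 11 both of Des, all 3 of Plec and 3 of Lmna. For 1426731_at of Des the difference of replicate 2 minus replicate 1 was -0.67 in the synaptic and -0.43 in the non-synaptic region. What the replicate number stands for is not stated in the labels.

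**Figure D4:**
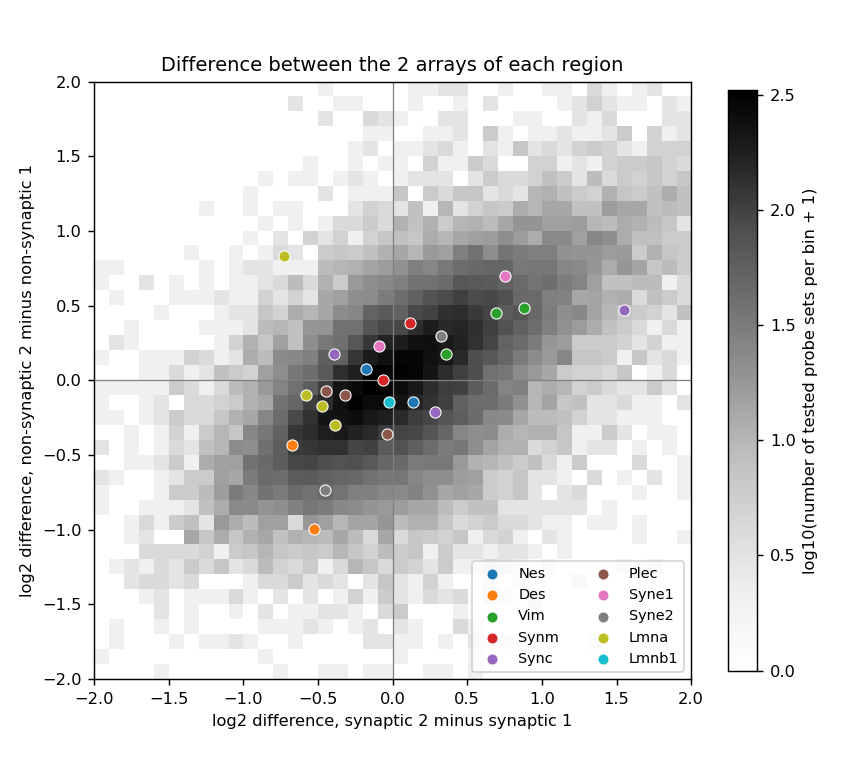
Log2 difference of replicate 2 minus replicate 1 in the synaptic region (horizontal axis) and in the non-synaptic region (vertical axis) for the 24 tested member probe sets, coloured by gene, over the density of all tested probe sets (grey). Vim lies in the upper right and Des, Plec and most of Lmna in the lower left, so these genes differed between the replicates in the same direction in both regions.

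Related genes were examined as lists, each gene read from its brightest probe set. By limma, 0 of the 50 tested genes in 4 lists passed an adjusted p of 0.05, and 0 passed an unadjusted p of 0.05 in either direction, beside 0.0162% of all 12360 genes at the adjusted threshold and 0.825% higher and 0.372% lower at the unadjusted one. The median of all 12360 genes was 0.00485.

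Of 19 partners of the nuclear envelope and lamina 18 were tested, with a median difference of 0.02. The inner membrane proteins that bind nesprins differed by 0.19 ± 0.19 for Sun2 and by 0.002 ± 0.20 for Sun1 (SE, n = 2 arrays per region), both with overlapping regions. The synaptic arrays were above both others for 2 of the 18, with Nrm, the inner membrane protein nurim, at 0.34 ± 0.26, and below both for Tor1a, the lumenal ATPase torsin-1A, at -0.23 ± 0.26. Beside this, 10.6% and 9.85% of all genes were apart in the respective direction.

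Of 14 desmin partners and cytolinkers 13 were tested, with a median of 0.08. The desmin chaperone Cryab differed by 0.03 ± 0.14, the co-chaperone Bag3 by 0.23 ± 0.29 and the filamin Flnc, which links Z-discs to the membrane, by 0.21 ± 0.20. All 3 had overlapping regions, and 1 of the 13 genes had the synaptic arrays above both others, beside 10.6% of all genes. Of 15 motor and centrosomal genes of nuclear positioning 13 were tested, with a median of 0.03. The kinesin heavy chain Kif5b, which moves nuclei in muscle cells, differed by -0.22 ± 0.19. The synaptic arrays were below both others for 2 of the 13, beside 9.85% of all genes. These were Kif5a at -0.17 ± 0.33, with a difference of only -0.001 within replicate 1, and Akap6 at -0.03 ± 0.16. Akap6 was named after its values were seen.

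Other intermediate filament genes had a median of -0.26 over the 6 of 12 that were tested. Keratins of lining cells made up 4 of them, with Krt8 at -0.30 ± 0.33 and Krt19 at 0.02 ± 0.22, and Bfsp2, a filament protein known from the lens, was the only 1 set apart, at -0.69 ± 0.42. The 3 neurofilament chains, the neuronal filament Prph and Ina did not pass the filter.

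**Figure D5:**
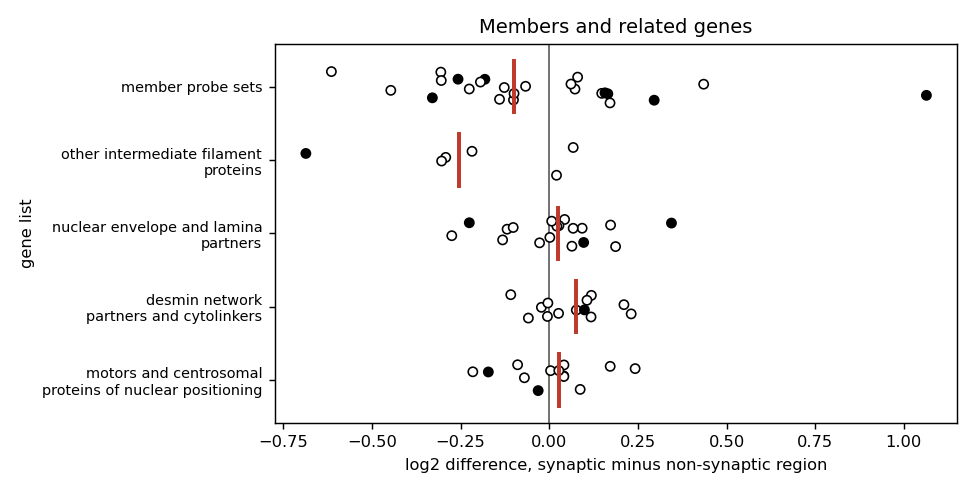
Log2 difference, synaptic minus non-synaptic region, of the 24 member probe sets and of the tested genes of 4 related lists, 1 point per probe set or gene, with the median of each row as a red line. Filled points have no overlap between the regions' arrays, and Nes 1449022_at is the point at 1.06, farther from 0 than any gene of the related lists.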

How the data were processed

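Per the labels, 4 arrays were hybridised with total RNA from left hemi-diaphragm. The authors deposited 1 intensity per probe set and array on a linear scale. Their scanner and summary method are not given in the sources at hand. The deposited arrays share a 2% trimmed mean of 2500.0, and this scaling was kept. Intensities were raised to a floor at the 20th percentile of all values (158.9), log2 was taken, and probe sets whose mean was under the 40th percentile of log2 values (8.87) were dropped with the 64 control probe sets, which kept 26477. The comparison used limma 3.58.1 under R 4.3.3 (lmFit, eBayes with an intensity trend, 2-sided, Benjamini-Hochberg over all probe sets tested), with 2 residual and 3.16 prior degrees of freedom. With 2 arrays in each region, the smallest exact permutation p is 0.333, so that test was not used. The scheme was also run on simulated data with independent errors for each array. That check does not cover deviations shared by arrays of the same replicate number. The number of arrays limits the precision, and so does signal near the floor for dim probe sets.

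Gene names came from the platform annotation, which can be old, updated through Entrez identifiers to RefSeq (GRCm38.p6), where 34754 of 34958 probe sets with a single gene matched. All member probe sets are named; of related lists, the genes with the smallest p or highest mean, up to 4 and 2 per list, and of marker lists up to 2 were eligible, while other markers and Sun1 were named for their role after their values were seen. The members and lists were chosen with earlier results of these data known. Settings varied were the scaling (quantile, median), the filter, floor, prior and threshold, the replicate number as a block, and leaving out each array.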

Additional observations from a re-analysis of the deposited data

How the results depend on the processing

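No member probe set passed the adjusted threshold of 0.05 by limma under quantile normalization, median centring, no filter, a filter at the 60th percentile, no floor, a floor at the 40th percentile, no intensity trend, a robust prior or a threshold of 0.10. The count was also 0 to 0 higher and 0 to 0 lower with any array left out, but there the lone array of a region is assumed to vary like the other region, so this says little about stability. At an unadjusted p under 0.05 the count was 1 higher and 0 lower. With the replicate block, 1 member rose, Nes 1449022_at (limma adjusted p = 0.00375), among 0.212% of probe sets called higher and 0.0680% lower, and the next smallest adjusted p of a member was 0.692. The labels do not say that the number pairs arrays, and the deviations of the arrays numbered 1 from their region means correlated across probe sets at 0.634 between the regions. Over the settings without the block, Nes 1449022_at kept its sign, with unadjusted limma p-values from 0.00148 to 0.0241 and adjusted ones from 0.401 to 1. The count with the synaptic arrays above both others went from 4 to 2 with median centring. Without each array in turn it ran from 4 to 10, with 10 without replicate 2 of the synaptic region, and the count below ran from 6 to 11, against 3 with all arrays, whichever of the 4 was left out; fewer arrays make such separation easier by construction. Of the 24 tested probe sets, 15 changed sign in some planned setting and 9 did not. The differences within each replicate number were added after seeing the data.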
